A study of Rattus norvegicus with 9 samples.

Results

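Cell cycle and proliferation genes were followed in cultured rat neural stem cells (NSCs). These were 40 genes chosen by name for their role, with earlier results of these data known. The count table held 23953 genes, and all 40 were found by symbol. They comprise 16 S phase genes, 14 mitosis genes, 5 G1 cyclins and kinases and 5 inhibitors of cyclin-dependent kinases. RNA-seq was available for 9 libraries in 3 groups of 3. The Con group was NSCs in differentiation medium alone, the Exo group received exosomes of bone marrow mesenchymal stem cells (BMSCs) in the same medium, and the pLV-Exo-Wnt5a group received exosomes of BMSCs that overexpressed Wnt5a. By the study's methods the lentiviral vectors were put into the donor BMSCs, an empty one for the Exo group, and the NSCs came from spinal cords of neonatal rats. The methods also list a small amount of serum and growth factors of the FGF family in the medium of every group. Nothing in the labels says whether replicates were separate cultures, so the p-values measure the spread between these libraries, which may be technical.

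A dividing cell passes through G1, copies its DNA in S phase and separates the copies in mitosis. In G1, D-type cyclins with the kinases Cdk4 and Cdk6, followed by cyclin E with Cdk2, inactivate the Rb protein, which frees E2F transcription factors to switch on the genes of DNA replication. Genes of mitosis are switched on later, by the B-Myb and FoxM1 proteins through an element called the CHR (cell cycle genes homology region), and the Cdkn genes encode proteins that hold the kinases inactive. Neural stem cells leave the cycle as they turn into neurons, while glial progenitors can go on dividing, so the RNA of these genes in a mixed culture depends on the share of cycling cells as well as on the level in each cell. In bulk RNA, fewer cycling cells and less RNA per cell cannot be told apart.

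The promoters of the S phase and of the mitosis genes hold different sequence words, and these are shown first because the results are ordered by the same classes. RefSeq promoters of the rat assembly GRCr8 were found for 31 of the 40 genes, and the 250 bases before the annotated start were searched on both strands. An E2F word (TTTCCCGC, TTTCGCGC, TTTGCCGC or TTTGGCGC) was found in 5 of 12 S phase promoters (41.7%: Mcm2, Mcm5, Mcm6, Mcm7 and Tyms) and in 1 of 12 mitosis promoters (8.33%: Cdk1), against 1.73% of 33469 promoters of the same length. A CHR word (TTTGAA or TTTAAA) was found in 11 of 12 mitosis promoters (91.7%) and in 2 of 12 S phase promoters (16.7%), against 25.4% of all promoters. In 4 of the 5 MCM promoters found (80%) there was an E2F word. The CCAAT box (CCAAT, a word contained in none of the others) was found in 8 of 12 S phase and 9 of 12 mitosis promoters (66.7% and 75%), against 34% of all promoters. TTTAAA is its own reverse complement, so it was met on both strands at each place. Below are the 150 bases before the start of 2 S phase genes with the E2F word in capitals and of 3 mitosis genes with the CHR word in capitals. Each is written 5′ to 3′ on the strand of the gene, and overlapping words on opposite strands form 1 longer run of capitals in Mcm6.
Mcm5, chr19:13488663-13488812, plus strand: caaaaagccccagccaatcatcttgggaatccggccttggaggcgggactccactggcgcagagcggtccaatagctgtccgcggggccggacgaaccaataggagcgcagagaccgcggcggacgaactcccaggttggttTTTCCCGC
Mcm6, chr13:42404353-42404502, minus strand: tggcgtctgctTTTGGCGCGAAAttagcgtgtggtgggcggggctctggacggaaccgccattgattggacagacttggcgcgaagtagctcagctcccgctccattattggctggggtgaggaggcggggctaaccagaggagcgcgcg
Ccnb1, chr2:33655226-33655375, minus strand: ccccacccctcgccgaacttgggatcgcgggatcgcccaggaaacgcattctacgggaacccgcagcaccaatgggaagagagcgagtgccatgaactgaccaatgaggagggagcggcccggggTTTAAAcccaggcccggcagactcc
Cdc20, chr5:137255800-137255949, minus strand: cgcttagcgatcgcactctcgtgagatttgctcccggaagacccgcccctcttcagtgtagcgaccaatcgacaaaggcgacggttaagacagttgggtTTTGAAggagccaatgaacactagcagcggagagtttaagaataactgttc
Top2a, chr10:84473094-84473243, minus strand: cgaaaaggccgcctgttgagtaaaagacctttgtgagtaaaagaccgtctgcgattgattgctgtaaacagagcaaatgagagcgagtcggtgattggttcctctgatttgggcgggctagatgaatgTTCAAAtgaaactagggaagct
In Top2a the CHR word lies on the opposite strand and is read as its reverse complement. A word match is a description of the sequence, not a bound site, and the absence of a word says only that these letters are not in this window.

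Each library held 32765138 to 40427647 counts, so 3 counts correspond to 0.0727 to 0.0908 CPM (counts scaled to a common library total). These values were normalised by TMM factors over all 9 libraries, and these factors were 0.9497 in Con replicate 1 and 0.996 to 1.02 in the others. Con replicate 1 stood apart from the other libraries, with a mean distance to them of 76.1 (Euclidean, log2 CPM of the genes that passed the filter) against 59.6 to 65.6 for the rest. All 9 libraries shared 1 batch label. The genes in the table carried mouse NCBI numbers: none of the 40 numbers was in the rat RefSeq table, while all 40 symbols were. The sources used here do not say whether reads of rat cells were counted on mouse genes, so a low count, as for Mki67, Bub1 or Kif11, cannot be read as low expression. No gene lengths were used, so levels are compared between libraries and never between genes.

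The label of the cells was checked against 8 markers each of neural stem cells, neurons, astrocytes and the oligodendrocyte lineage. Each had more than 3 counts in at least 1 library. Mog, of the oligodendrocyte lineage, ranged only from 0 to 0.278 CPM and was at 0 in Con replicate 1. The summed CPM of the neural stem cell markers was 3405 to 3683 in Con, 2894 to 3408 in Exo and 3295 to 4334 in pLV-Exo-Wnt5a. Neuron markers summed to 3364 to 3562, 3296 to 3994 and 3171 to 4084 CPM, astrocyte markers to 4986 to 6123, 4896 to 4955 and 6562 to 6910 CPM, and oligodendrocyte lineage markers to 2146 to 2419, 2003 to 2173 and 1935 to 2150 CPM, in the same order of groups. Markers of neurons and glia were thus measured beside those of stem cells in every group. Endothelial markers stayed at or under 0.654 CPM with Cdh5 under the floor of 3 counts in every library, and fibroblast and mural markers lay between 20.6 and 31.9 CPM.

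No cell cycle gene passed Q < 0.05 in any of the 3 comparisons (edgeR quasi-likelihood test, Benjamini-Hochberg Q over all genes tested), and all 40 passed the filter on low counts in each. Calls were rare in the whole table as well: 0.00664% of 15070 genes for Exo versus Con, 0.436% of 15132 genes for pLV-Exo-Wnt5a versus Exo and 0.0862% of 15089 genes for pLV-Exo-Wnt5a versus Con. At an unadjusted p under 0.05, 8 of the 40 genes were counted for Exo versus Con, 10 for pLV-Exo-Wnt5a versus Exo and 3 for pLV-Exo-Wnt5a versus Con. The share of all genes tested at the same limit was 14.9%, 12% and 8.35%. DESeq2 on the same libraries called 0, 3 and 0 of the 40 at its adjusted p under 0.05, the 3 being Mcm5, Ccnd1 and Mcm2 for pLV-Exo-Wnt5a versus Exo (adjusted p 0.00543, 0.0386 and 0.0442). It called more of the whole table than edgeR did, with 211 of 15070, 411 of 15132 and 72 of 15089 genes. The words higher and lower below give the sign of an estimate, and no cell cycle gene is called changed.

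In sign, 12 of 40 estimates were above 0 and 28 below for Exo versus Con (50.3% and 49.7% of all genes tested), 29 above and 11 below for pLV-Exo-Wnt5a versus Exo (51.4% and 48.6%), and 18 above and 22 below for pLV-Exo-Wnt5a versus Con (50.8% and 49.2%). The 3 libraries of each group did not overlap for 10 genes lower and 0 higher in the first of these comparisons (12.4% and 10.8% of all genes), for 0 lower and 9 higher in the second (8.57% and 7.9%), and for 0 lower and 3 higher in the third (9.09% and 7.52%). The unadjusted counts were uneven in direction as well. For Exo versus Con, 7 of the 8 genes were lower and 1 was higher, where 6.01% of all genes tested were lower and 8.92% higher at that limit. For pLV-Exo-Wnt5a versus Exo, all 10 were higher, where 5.07% of all genes tested were higher and 6.91% lower. Without pLV-Exo-Wnt5a replicate 3 that direction was mixed, with 4 higher (Ccnd1, Mcm2, Mcm3 and Mcm5) and 3 lower (Ccnd2, Ccne2 and Kif11), where 4.39% of all genes were higher and 7.84% lower in that fit. For pLV-Exo-Wnt5a versus Con, 2 were higher and 1 was lower, against 4.2% and 4.15% of all genes. Exo versus Con and pLV-Exo-Wnt5a versus Exo use the same 3 Exo libraries, so a low value in those libraries enters both, with opposite sign, and their counts are not separate observations.

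**Figure D1:**
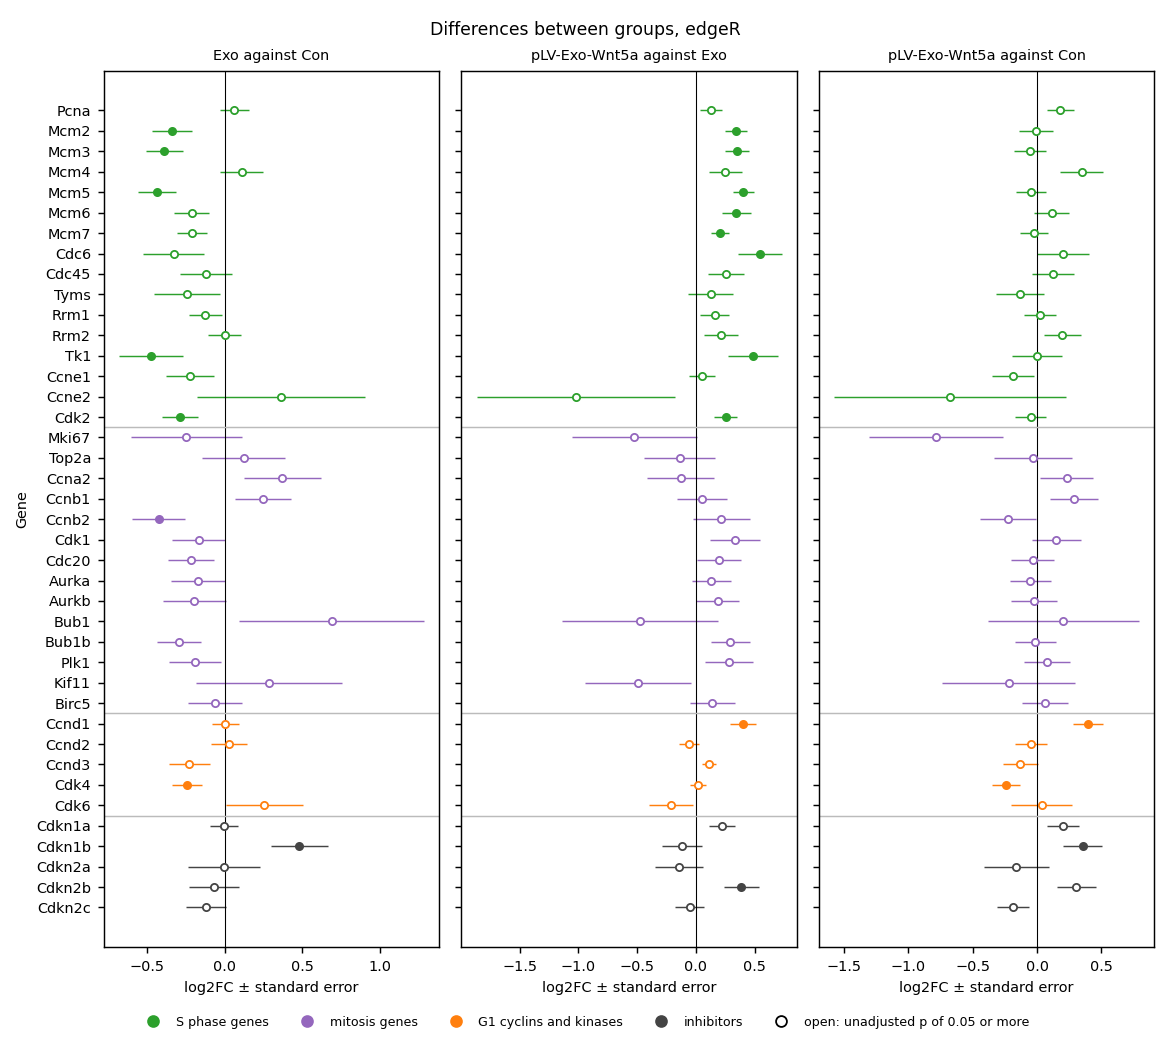
Differences between groups for each of the 40 genes as log2FC (x axis) with its standard error (bar), 1 panel per comparison, genes in rows and colours for the 4 classes. Filled points had an unadjusted edgeR p under 0.05: 8, 10 and 3 of 40 from left to right, with the filled S phase points left of 0 in the left panel, right of 0 in the middle panel and none filled in the right panel.

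The S phase genes were, by their medians, lower in Exo than in Con and higher in pLV-Exo-Wnt5a than in Exo. Of 16 genes, 13 were lower and 3 higher in Exo than in Con, with a median log2FC of -0.22, and 15 were higher and 1 lower in pLV-Exo-Wnt5a than in Exo, with a median of 0.25. Between pLV-Exo-Wnt5a and Con the median was -0.0047, with 7 higher and 9 lower, and the medians over all genes tested were 0.0020, 0.0049 and 0.0041 in the 3 comparisons. At an unadjusted p under 0.05 the class contributed 5 genes to Exo versus Con (Mcm2, Mcm3, Mcm5, Cdk2 and Tk1, all lower), 8 to pLV-Exo-Wnt5a versus Exo (Mcm2, Mcm3, Mcm5, Mcm6, Mcm7, Cdc6, Cdk2 and Tk1, all higher) and 0 to pLV-Exo-Wnt5a versus Con. Without Con replicate 1, the library that stood apart, the class median for Exo versus Con was -0.17 and 4 of its genes had such a p (Mcm3, Mcm5, Mcm6 and Cdk2), where 5.25% of all genes were lower and 6.81% higher in that fit. The count for Exo versus Con was 3 without Con replicate 2 and 2 (Mcm3 and Mcm5) without Exo replicate 2 or without Exo replicate 3, fits in which 4.25%, 2.5% and 3.77% of all genes were lower at that limit, compared with 6.01% with all libraries. For pLV-Exo-Wnt5a versus Exo it was 5 without Exo replicate 2, 4 without Exo replicate 3 (Mcm2, Mcm3, Mcm5 and Cdc6) and 4 without pLV-Exo-Wnt5a replicate 3, of which Mcm2, Mcm3 and Mcm5 were higher and Ccne2 lower. In these 3 fits 3.12%, 4.81% and 4.39% of all genes were higher, compared with 5.07% with all libraries.

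Mcm2 to Mcm7 encode the 6 subunits of the MCM helicase, which unwinds DNA at replication forks. Mcm5 measured 37.8, 30.7 and 30.9 CPM in Con, 27.1, 23.6 and 22.6 in Exo and 32.2, 31.5 and 32.7 in pLV-Exo-Wnt5a. The group means were 33.1 ± 4.05 CPM (SD, n = 3), 24.5 ± 2.37 CPM (SD, n = 3) and 32.1 ± 0.572 CPM (SD, n = 3). Every Exo library was below every other library, while Con and pLV-Exo-Wnt5a overlapped. Mcm5 was lower in Exo than in Con (log2FC -0.44, SE 0.12, edgeR Q = 0.265), higher in pLV-Exo-Wnt5a than in Exo (log2FC 0.40, SE 0.089, edgeR Q = 0.0860) and near 0 between pLV-Exo-Wnt5a and Con (log2FC -0.047, SE 0.12, edgeR Q = 0.925). Its unadjusted p stayed under 0.05 in 6 of 6 fits that each left out 1 library, in both comparisons with Exo.

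Mcm3 measured 31.96, 28.6 and 25.7 CPM in Con, 23.99, 20.7 and 21.1 in Exo and 26.7, 25.6 and 30.7 in pLV-Exo-Wnt5a. The Exo libraries again lay below the other 6 libraries, with log2FC -0.39, SE 0.12, edgeR Q = 0.265 for Exo versus Con and log2FC 0.35, SE 0.10, edgeR Q = 0.193 for pLV-Exo-Wnt5a versus Exo. The unadjusted p of Mcm3 was under 0.05 in 6 of 6 fits without 1 library in both. Mcm2 measured 45.8, 33.5 and 35.8 CPM in Con, 32.7, 30.1 and 28.2 in Exo and 35.1, 37.4 and 42.1 in pLV-Exo-Wnt5a, where Con replicate 1 was the highest library. Its estimates were log2FC -0.34, SE 0.13, edgeR Q = 0.293 against Con, and log2FC 0.34, SE 0.094, edgeR Q = 0.161 for pLV-Exo-Wnt5a versus Exo. Without Con replicate 1 the Mcm2 estimate against Con was -0.20. The unadjusted p of Mcm2 held in 3 of 6 fits without 1 library against Con and in 6 of 6 between the exosome groups.

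Mcm6 measured 25.8, 28.9 and 24.97 CPM in Con, 23.7, 23.9 and 21.1 in Exo and 27.2, 24.7 and 34.4 in pLV-Exo-Wnt5a. Mcm7 measured 81.7, 72.02 and 65.2 CPM in Con, 63.3, 63.6 and 61.9 in Exo and 71.6, 65.2 and 79.3 in pLV-Exo-Wnt5a. For both, Exo lay below the other 6 libraries, the log2FC against Con was -0.21 (SE 0.11) and -0.21 (SE 0.095), and pLV-Exo-Wnt5a exceeded Exo by 0.34 (SE 0.12) and 0.20 (SE 0.078). Without pLV-Exo-Wnt5a replicate 3 these last differences were 0.18 and 0.12, with an unadjusted p over 0.05. Mcm4 measured 10.2, 11.9 and 12.9 CPM in Con, 12.6, 13.1 and 12.04 in Exo and 12.9, 13.4 and 18.3 in pLV-Exo-Wnt5a. Its Exo values overlapped those of Con, its difference for Exo versus Con was 0.11 (SE 0.14) with a 95% interval of -0.20 to 0.42, and pLV-Exo-Wnt5a replicate 3 was its highest library.

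**Figure D2:**
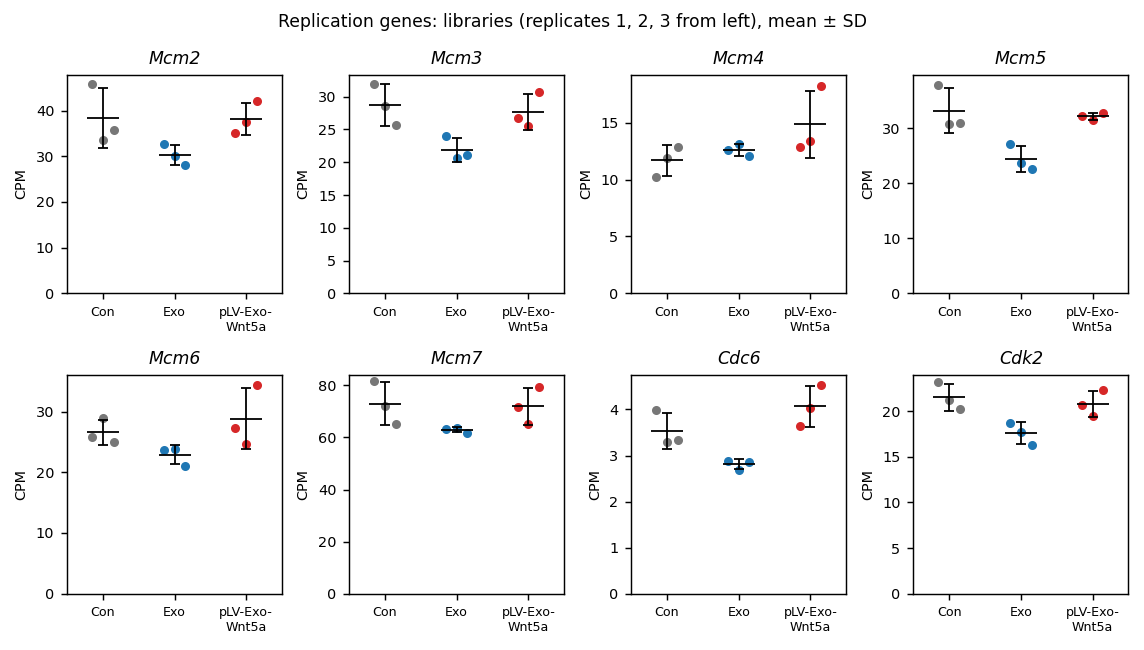
CPM (y axis, from 0) of 8 replication genes in each library (points, replicates 1 to 3 from left to right within a group) with the group mean and SD (horizontal lines), for Con, Exo and pLV-Exo-Wnt5a. The panels show every S phase gene whose 3 Exo points lie below the other 6, 7 of 16 (43.8%, against 3.36% of all genes). Mcm4 is drawn beside them without that order, with Exo at 12.04 to 13.1 CPM and Con at 10.2 to 12.9 CPM.

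Cdc6 helps load the helicase onto DNA before replication, and Cdk2 is the kinase that cyclin E activates at the start of S phase. Cdc6 measured 3.98, 3.29 and 3.33 CPM in Con, 2.88, 2.68 and 2.85 in Exo and 3.64, 4.04 and 4.53 in pLV-Exo-Wnt5a. Its estimates were log2FC -0.33, SE 0.20, edgeR Q = 0.422 for Exo versus Con and log2FC 0.55, SE 0.18, edgeR Q = 0.268 for pLV-Exo-Wnt5a versus Exo. Cdk2 measured 23.2, 21.2 and 20.2 CPM in Con, 18.7, 17.7 and 16.3 in Exo and 20.7, 19.4 and 22.3 in pLV-Exo-Wnt5a. Its estimates were log2FC -0.29, SE 0.12, edgeR Q = 0.299 and log2FC 0.25, SE 0.100, edgeR Q = 0.346 in the same comparisons. In both genes the Exo libraries were the lowest 3 of the 9.

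The 3 Exo libraries lay below all 6 others for 7 of the 40 genes, Mcm2, Mcm3, Mcm5, Mcm6, Mcm7, Cdc6 and Cdk2, all of them S phase genes (43.8% of 16, and 5 of the 6 MCM subunits, 83.3%). Over 15458 genes that passed the filter in the 9 libraries, 3.36% had that order. No gene of the mitosis, G1 or inhibitor classes had it, no gene of the 40 had the Exo libraries above the others (2.93% of all genes), none had Con above or below the others (4.81% and 3.2%), and none had pLV-Exo-Wnt5a below them (1.99%). The genes were not independent of each other, since the same 9 libraries gave all of them.

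Tk1 encodes thymidine kinase, a salvage enzyme of DNA precursors. It measured 5.96, 5.39 and 6.42 CPM in Con, 5.39, 3.38 and 3.99 in Exo and 6.03, 4.69 and 7.001 in pLV-Exo-Wnt5a. Exo lay below Con, with log2FC -0.48, SE 0.21, edgeR Q = 0.321, and Exo replicate 1 overlapped pLV-Exo-Wnt5a (log2FC 0.49, SE 0.21, edgeR Q = 0.399). The unadjusted p of Tk1 held in 1 of 6 and 2 of 6 fits without 1 library. The other enzymes of nucleotide supply overlapped between groups. Thymidylate synthase (Tyms) ranged from 4.67 to 7.78 CPM over the 9 libraries, and the ribonucleotide reductase subunits Rrm1 and Rrm2 from 52.7 to 75.9 and from 26.1 to 41.7 CPM, with both at their highest in pLV-Exo-Wnt5a replicate 3. None of these 3 had an unadjusted p under 0.05 in any comparison.

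The remaining S phase genes gave no unadjusted p under 0.05 with all libraries. Pcna, the sliding clamp of the DNA polymerases, measured 51.1, 55.5 and 57.9 CPM in Con, 61.5, 57.96 and 52.2 in Exo and 61.3, 55.7 and 69.6 in pLV-Exo-Wnt5a, and its difference for Exo versus Con was 0.063 (SE 0.096) with a 95% interval of -0.15 to 0.28. Cdc45, a partner of the helicase, ranged from 4.72 to 6.59 CPM, and cyclin E1 (Ccne1) from 11.2 to 16.2 CPM with Con replicate 1 highest. Cyclin E2 (Ccne2) had 0 to 16 counts per library, and the 0 counts in pLV-Exo-Wnt5a replicate 2 allow up to 0.0819 CPM. Replicate 3 of pLV-Exo-Wnt5a held 16 counts, and without it Ccne2 had an unadjusted p under 0.05, lower in pLV-Exo-Wnt5a, against both Exo and Con.

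The mitosis genes varied between the libraries of a group. Their median coefficient of variation (CV, SD over mean within a group) was 11.0% in Con, 24.5% in Exo and 28.8% in pLV-Exo-Wnt5a, against 13.1%, 9.25% and 9.75% over all genes that passed the filter and 11.0%, 8.21% and 10.9% for the S phase genes. The median over the 14 genes of the log2 CPM minus the Con mean was 0.18 in Exo replicate 1, -0.22 in Exo replicate 2 and -0.35 in Exo replicate 3. It was 0.022, -0.40 and 0.34 in pLV-Exo-Wnt5a replicates 1, 2 and 3. For the S phase genes the same median was -0.16, -0.24 and -0.28 in Exo and 0.0026, -0.12 and 0.23 in pLV-Exo-Wnt5a, so the Exo libraries were all below 0 for S phase genes but not for mitosis genes.

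**Figure D3:**
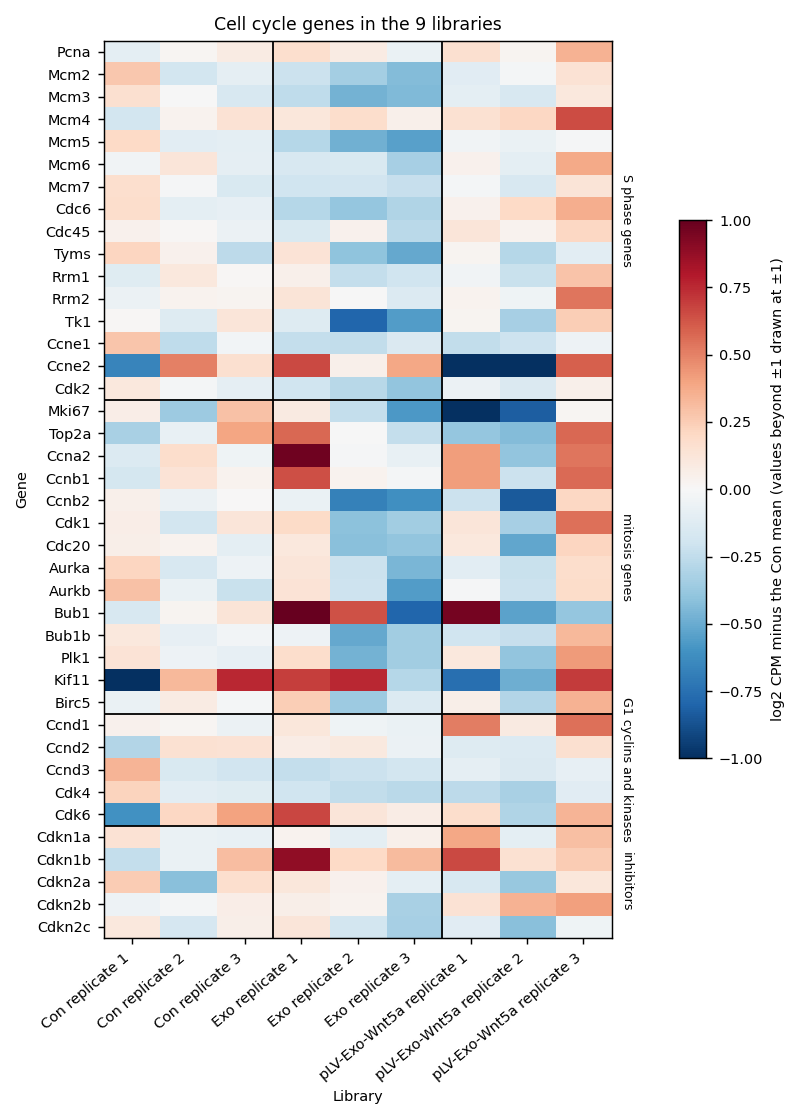
Log2 CPM of each gene minus its mean over the 3 Con libraries (colour, red higher and blue lower, drawn at ±1 where larger) for 40 genes (rows, grouped by class) in the 9 libraries (columns). Exo replicates 2 and 3 and pLV-Exo-Wnt5a replicate 2 are blue over most mitosis genes, and pLV-Exo-Wnt5a replicate 3 is red over both the S phase and mitosis classes.

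Cyclins A2, B1 and B2 (Ccna2, Ccnb1 and Ccnb2) activate Cdk1, the kinase that drives entry into mitosis. Ccna2 measured 16.1, 19.9 and 17.2 CPM in Con, 34.7, 17.5 and 16.8 in Exo and 23.6, 13.4 and 25.6 in pLV-Exo-Wnt5a, and Ccnb1 15.1, 18.7 and 17.4 CPM in Con, 26.5, 17.4 and 16.8 in Exo and 22.7, 14.6 and 25.2 in pLV-Exo-Wnt5a. In both, Exo replicate 1 was the highest and pLV-Exo-Wnt5a replicate 2 the lowest of all libraries. Ccnb2 measured 14.5, 13.4 and 14.01 CPM in Con, 13.3, 8.70 and 9.08 in Exo and 12.02, 7.75 and 16.1 in pLV-Exo-Wnt5a. It was the only mitosis gene with an unadjusted p under 0.05, for Exo versus Con (log2FC -0.43, SE 0.17, edgeR Q = 0.303), in which the groups did not overlap, and that p held in 2 of 6 fits without 1 library. Its log2FC was -0.65 without Exo replicate 1. Cdk1 measured 19.3, 16.3 and 20.1 CPM in Con, 21.1, 13.9 and 14.5 in Exo and 20.1, 14.7 and 27.1 in pLV-Exo-Wnt5a, and its groups overlapped in every comparison (log2FC 0.33, SE 0.21, edgeR Q = 0.603 for pLV-Exo-Wnt5a versus Exo).

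Plk1 and the Aurora kinases Aurka and Aurkb build and control the spindle, and Cdc20 starts the destruction of the cyclins. Plk1 measured 23.97, 21.03 and 20.7 CPM in Con, 24.6, 15.7 and 17.2 in Exo and 23.5, 16.6 and 29.3 in pLV-Exo-Wnt5a. Cdc20 measured 28.8, 28.4 and 25.8 CPM in Con, 29.8, 20.6 and 21.1 in Exo and 29.8, 19.3 and 32.2 in pLV-Exo-Wnt5a. Both had the pattern of Cdk1, with pLV-Exo-Wnt5a replicate 3 highest and Exo replicates 2 and 3 and pLV-Exo-Wnt5a replicate 2 lowest. Aurka ranged from 8.78 to 14.03 CPM and Aurkb from 6.69 to 12.1 CPM, each highest in Con replicate 1 and lowest in Exo replicate 3. The differences between groups of these 4 genes lay between -0.22 and 0.28 on the log2 scale.

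Bub1b, a kinase of the checkpoint that delays the separation of chromosomes, measured 20.8, 18.3 and 18.9 CPM in Con, 18.6, 13.5 and 15.1 in Exo and 16.8, 16.5 and 24.2 in pLV-Exo-Wnt5a. Birc5 (survivin), a partner of Aurkb, ranged from 7.45 to 12.2 CPM. Top2a, the topoisomerase that untangles DNA, measured 3.11, 3.72 and 5.18 CPM in Con, 5.84, 3.90 and 3.31 in Exo and 2.98, 2.89 and 5.86 in pLV-Exo-Wnt5a. Mki67, which encodes the proliferation marker Ki67, measured 1.05, 0.770 and 1.24 CPM in Con, 1.07, 0.845 and 0.656 in Exo and 0.202, 0.546 and 1.02 in pLV-Exo-Wnt5a. These Mki67 values rest on 8 to 42 counts per library, with 8 in pLV-Exo-Wnt5a replicate 1, and its differences were -0.25 (SE 0.36), -0.52 (SE 0.53) and -0.79 (SE 0.52) for Exo versus Con, pLV-Exo-Wnt5a versus Exo and pLV-Exo-Wnt5a versus Con. The 95% interval for the last was -1.92 to 0.35. The checkpoint kinase Bub1 (6 to 32 counts) and the spindle motor Kif11 (18 to 73 counts) were also sparse, and none of these 6 genes had an unadjusted p under 0.05 with all libraries. Without pLV-Exo-Wnt5a replicate 3, Kif11 had one against Exo and Mki67 against Con, both lower in pLV-Exo-Wnt5a.

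**Figure D4:**
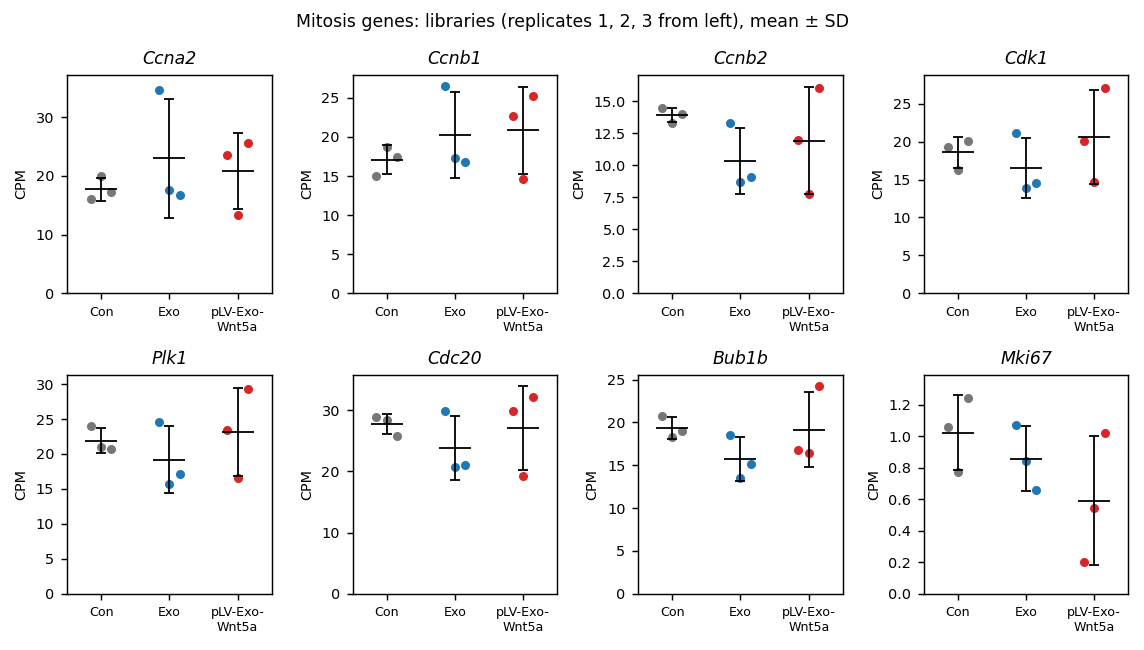
CPM (y axis, from 0) of 8 mitosis genes in each library (points, replicates 1 to 3 from left to right within a group) with the group mean and SD (horizontal lines). The points of Exo and pLV-Exo-Wnt5a spread more than those of Con for the cyclins, Cdk1, Plk1 and Cdc20, and for Ccna2 Exo replicate 1 stands at 34.7 CPM above 17.5 and 16.8 CPM in the other Exo libraries.

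The comparison of the mitosis class turned on single libraries. With all libraries, 1 mitosis gene had an unadjusted p under 0.05 for Exo versus Con (lower, as were 6.01% of all genes) and 0 for pLV-Exo-Wnt5a versus Exo, and the class medians were -0.17 and 0.14. Without Exo replicate 1 there were 5 genes for Exo versus Con (Bub1b, Ccnb2, Cdc20, Cdk1 and Plk1, all lower), where 4.02% of all genes were lower and 4.66% higher in that fit. Without pLV-Exo-Wnt5a replicate 2 there were 5 for pLV-Exo-Wnt5a versus Exo (Bub1b, Ccnb2, Cdc20, Cdk1 and Plk1, all higher), where 4.90% of all genes were higher and 4.49% lower. Over the fits without 1 library the class median ranged from -0.36 to -0.029 and from -0.053 to 0.31 in these comparisons, against -0.27 to -0.17 and 0.15 to 0.31 for the S phase genes.

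The summed neural stem cell markers moved with the mitosis genes within the exosome groups. In Exo they were 3408 CPM in replicate 1 and 2894 and 2926 CPM in replicates 2 and 3, and in pLV-Exo-Wnt5a 3898, 3295 and 4334 CPM in replicates 1, 2 and 3. Vimentin (Vim), a filament protein of stem cells and glia, was the most abundant of these markers in every library, and not every marker followed the sum, such as Hes5 at 134 to 139 CPM in Exo and 126 to 129.6 CPM in pLV-Exo-Wnt5a. The summed neuron markers ran the other way, at 3296, 3994 and 3880 CPM in Exo and 3710, 4084 and 3171 CPM in pLV-Exo-Wnt5a. Single neuron markers did not all do so: Map2, a microtubule protein of dendrites, measured 224, 187 and 174 CPM in Exo and 158, 124 and 134 CPM in pLV-Exo-Wnt5a. The part of these markers in the mitosis values was not tested. Markers of several cell types moved between the groups together with the MCM genes or against them. Of 8 neural stem cell markers, 7 were lower in Exo than in Con (3 at an unadjusted p under 0.05) and 6 higher in pLV-Exo-Wnt5a than in Exo (2 at that limit), where 6.01% of all genes were lower in the first and 5.07% higher in the second comparison at that limit. Vim lay lowest in the 3 Exo libraries, at 2008, 1625 and 1564 CPM in Con, 1467, 1236 and 1302 in Exo and 2077, 1694 and 2358 in pLV-Exo-Wnt5a, and rose between the exosome groups (log2FC 0.62, edgeR Q = 0.0389). Of 8 neuron markers, 7 were higher in Exo than in Con (5 at the unadjusted limit) and 5 lower in pLV-Exo-Wnt5a than in Exo (2 at that limit), where 8.92% of all genes were higher and 6.91% lower. Doublecortin (Dcx), of young neurons, lay highest in the 3 Exo libraries, at 51.3, 75.9 and 97.3 CPM in Con, 115 to 117 in replicates 1 and 2 and 98.6 in replicate 3 of Exo and 66.3 to 76.2 in pLV-Exo-Wnt5a, and fell between the exosome groups (log2FC -0.60, edgeR Q = 0.0113). Of 8 astrocyte markers, 5 were higher in Exo than in Con and 5 lower in pLV-Exo-Wnt5a than in Exo, while Gfap, the astrocyte filament, rose from 2195 to 2275 CPM in Exo to 3971 to 4071 CPM in pLV-Exo-Wnt5a (log2FC 0.86, edgeR Q = 3.36e-05). Among oligodendrocyte lineage markers, Mbp, a myelin protein, lay lowest in the 3 Exo libraries (log2FC -0.44, edgeR Q = 0.265 for Exo versus Con and log2FC 0.57, edgeR Q = 0.161 for pLV-Exo-Wnt5a versus Exo), while of the 7 tested 5 were lower and 2 higher in Exo than in Con, and 3 higher and 4 lower in pLV-Exo-Wnt5a than in Exo. Of 5 fibroblast and mural markers tested, 4 were higher and 1 lower in the first comparison and 3 higher and 2 lower in the second, with Pdgfrb, a receptor of mural cells, at -0.74 (edgeR Q = 0.265) and 0.078 (edgeR Q = 0.852) and the collagen Col3a1 at 0.46 (edgeR Q = 0.337) and -0.55 (edgeR Q = 0.264). The summed markers of microglia and macrophages ran in the direction of the MCM genes. Of the 5 tested, 5 were lower in Exo than in Con and 5 higher in pLV-Exo-Wnt5a than in Exo. At the unadjusted limit these were 2 and 2, where 6.01% of all genes were lower and 5.07% higher. Csf1r, a receptor of these cells, measured 1.93, 1.36 and 2.85 CPM in Con, 0.740, 0.323 and 0.959 in Exo and 2.60, 2.86 and 1.96 in pLV-Exo-Wnt5a (log2FC -1.59, edgeR Q = 0.265 and log2FC 1.88, edgeR Q = 0.0640). Cx3cr1 gave -2.04 (edgeR Q = 0.265) and 0.65 (edgeR Q = 0.743), and lay at 0.278 to 0.557 CPM in pLV-Exo-Wnt5a and 0.539 to 1.45 CPM in Con. Aif1 gave -0.017 and 0.13. Of the list, 8 of 8 genes were in the table, none at 0 in every library, and they summed to 6.86 to 8.57 CPM in Con, 4.26 to 5.32 in Exo and 7.05 to 9.22 in pLV-Exo-Wnt5a. Of their defining genes, Ptprc lay at 0 to 0.145 CPM, P2ry12 at 0 to 0.308 CPM and Tmem119 at 0 to 0.369 CPM. The part of all these markers in the MCM values was not tested.

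Among G1 genes, cyclin D1 stood apart in pLV-Exo-Wnt5a. Ccnd1, a cyclin that mitogens and Wnt signalling are known to raise, measured 65.00, 63.7 and 60.4 CPM in Con, 68.2, 61.3 and 60.1 in Exo and 89.99, 66.98 and 92.1 in pLV-Exo-Wnt5a. The group means were 63.05 ± 2.37 CPM (SD, n = 3), 63.2 ± 4.38 CPM (SD, n = 3) and 83.02 ± 13.9 CPM (SD, n = 3). Replicates 1 and 3 of pLV-Exo-Wnt5a were above every other library, while replicate 2 lay within the range of Exo. Ccnd1 was higher in pLV-Exo-Wnt5a than in Exo (log2FC 0.40, SE 0.11, edgeR Q = 0.166) and than in Con (log2FC 0.40, SE 0.12, edgeR Q = 0.440), and Exo and Con differed by 0.0042 (SE 0.086) with a 95% interval of -0.19 to 0.20. Its unadjusted p held in 6 of 6 fits without 1 library in both comparisons, and without pLV-Exo-Wnt5a replicate 2 its edgeR Q against Exo was 0.0157. The part of Wnt signalling in the Ccnd1 values was not tested.

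Cdk4, the kinase partner of the D cyclins, measured 574, 457 and 453 CPM in Con, 428, 415 and 407 in Exo and 411, 393 and 453 in pLV-Exo-Wnt5a. Exo lay below Con without overlap (log2FC -0.25, SE 0.097, edgeR Q = 0.298, and -0.13 without Con replicate 1), and pLV-Exo-Wnt5a was lower than Con as well (log2FC -0.24, SE 0.11, edgeR Q = 0.590) but overlapped it. Con replicate 1 was the highest library, and without it the difference of pLV-Exo-Wnt5a from Con was -0.12, with an unadjusted p over 0.05. Cyclin D3 (Ccnd3) shared that library as its highest, at 78.95 CPM, with 52.98 to 58.8 CPM in the other 8. Cyclin D2 (Ccnd2) ranged from 173 to 236 CPM and Cdk6 from 10.2 to 24.7 CPM, both lowest in Con replicate 1, and neither had an unadjusted p under 0.05 with all libraries. The class medians were 0.0042, 0.018 and -0.044 for Exo versus Con, pLV-Exo-Wnt5a versus Exo and pLV-Exo-Wnt5a versus Con.

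**Figure D5:**
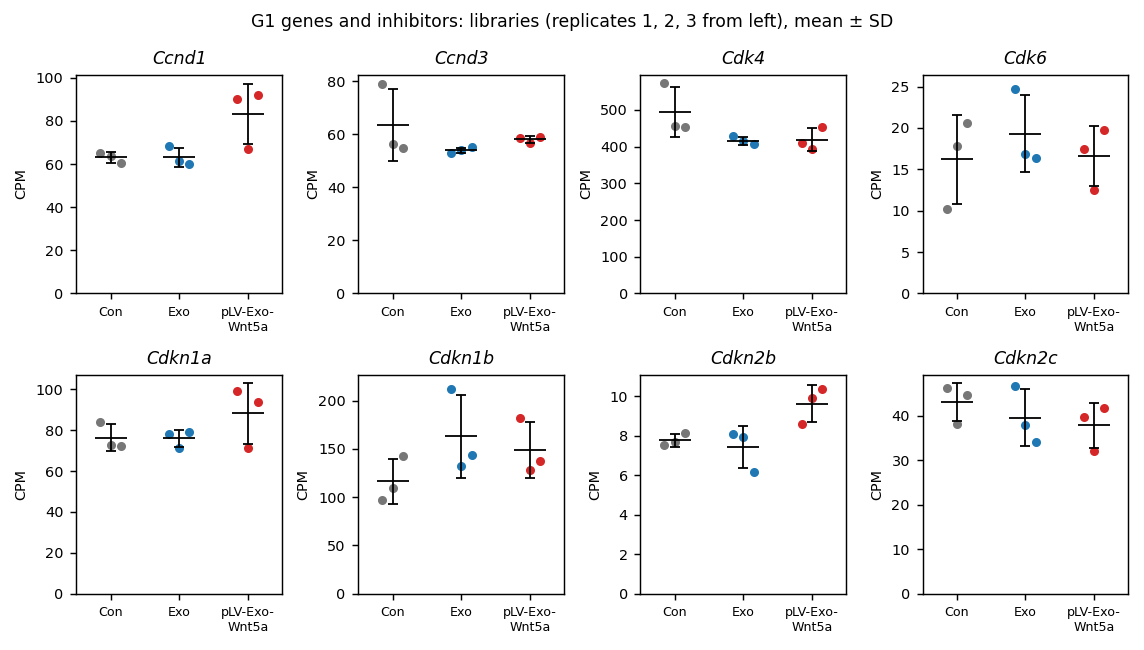
CPM (y axis, from 0) of 4 G1 genes and 4 inhibitors in each library (points, replicates 1 to 3 from left to right within a group) with the group mean and SD (horizontal lines). For Ccnd1, pLV-Exo-Wnt5a replicates 1 and 3 lie at 89.99 and 92.1 CPM above all others, and for Cdkn2b all 3 pLV-Exo-Wnt5a points lie above the other 6.

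The inhibitors had class medians of -0.0043, -0.054 and 0.21 in the 3 comparisons. Cdkn2b (p15), an inhibitor of Cdk4 and Cdk6, measured 7.52, 7.68 and 8.14 CPM in Con, 8.09, 7.95 and 6.18 in Exo and 8.58, 9.93 and 10.4 in pLV-Exo-Wnt5a. Among the 40 genes, only Cdkn2b had the 3 pLV-Exo-Wnt5a libraries above the other 6, an order found in 1.82% of all genes (log2FC 0.39, SE 0.15, edgeR Q = 0.334 against Exo, and log2FC 0.31, SE 0.15, edgeR Q = 0.627 against Con). Cdkn1b (p27), an inhibitor of Cdk2, measured 97.4, 109.8 and 142 CPM in Con, 212, 132 and 144 in Exo and 182, 128 and 137 in pLV-Exo-Wnt5a. It was higher in Exo than in Con (log2FC 0.48, SE 0.18, edgeR Q = 0.290) and higher in pLV-Exo-Wnt5a than in Con (log2FC 0.35, SE 0.15, edgeR Q = 0.586), with overlap each time through Con replicate 3, and the unadjusted p held in 3 of 6 fits without 1 library in both. Without Exo replicate 1, its highest library, the log2FC of Cdkn1b for Exo versus Con was 0.25, with an unadjusted p over 0.05, and without pLV-Exo-Wnt5a replicate 1 that for pLV-Exo-Wnt5a versus Con was 0.18.

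Cdkn1a (p21), the inhibitor that p53 switches on, measured 84.2, 72.7 and 72.3 CPM in Con, 78.05, 71.3 and 79.03 in Exo and 99.4, 71.3 and 93.9 in pLV-Exo-Wnt5a. Its values in pLV-Exo-Wnt5a followed those of Ccnd1, high in replicates 1 and 3, and its groups overlapped (log2FC 0.22, SE 0.11, edgeR Q = 0.461 against Exo). Cdkn2c (p18) ranged from 32.1 to 46.6 CPM and Cdkn2a, whose locus also encodes a p53 stabiliser, from 2.41 to 3.88 CPM, neither with an unadjusted p under 0.05.

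Other genes of the pathway were read from lists chosen by function, with earlier results of these data known. They come from the same 9 libraries, so they are not separate observations of the S phase pattern. Of 30 other replication genes, 25 were lower and 5 higher in Exo than in Con (median log2FC -0.096), and 24 were higher and 6 lower in pLV-Exo-Wnt5a than in Exo (median 0.16). None passed Q < 0.05, and 2 (lower), 4 (higher) and 0 had an unadjusted p under 0.05 in the 3 comparisons, which is 6.67% lower and 13.3% higher in the first and second, where 6.01% of all genes were lower and 5.07% higher. Exo lay below the other 6 libraries for 4 of these 30 (13.3%), Cdt1, Mcm10, Lig1 and Dnmt1, against 3.36% of all genes. Lig1, the ligase that joins newly made fragments, measured 44.01, 34.1 and 32.8 CPM in Con, 32.6, 30.2 and 30.8 in Exo and 34.8, 35.99 and 40.8 in pLV-Exo-Wnt5a (log2FC 0.26, SE 0.086, edgeR Q = 0.246 for pLV-Exo-Wnt5a versus Exo). Dnmt1, which copies DNA methylation onto new strands, measured 156, 162 and 154 CPM in Con, 149.8, 148 and 150.4 in Exo and 165, 164 and 168 in pLV-Exo-Wnt5a (log2FC 0.16, SE 0.052, edgeR Q = 0.241). Uhrf1, which brings Dnmt1 to replication forks, gave log2FC -0.31, SE 0.13, edgeR Q = 0.321 for Exo versus Con and log2FC 0.43, SE 0.13, edgeR Q = 0.214 for pLV-Exo-Wnt5a versus Exo. Geminin (Gmnn), which stops replication from starting again, was lower in Exo than in Con (log2FC -0.48, SE 0.21, edgeR Q = 0.324).

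Of 38 other mitosis genes, 36 passed the filter and none passed Q < 0.05, with medians of -0.066, 0.091 and 0.0048 in the 3 comparisons. At an unadjusted p under 0.05, 4 were lower and 0 higher for Exo versus Con (11.1% lower, where 6.01% of all genes were lower and 14.9% passed in either direction), 3 were higher and 0 lower for pLV-Exo-Wnt5a versus Exo (8.33% higher, where 5.07% were higher and 12% passed in either direction) and 1 was lower for pLV-Exo-Wnt5a versus Con. Cdc25b, the phosphatase that activates Cdk1, measured 63.5, 54.7 and 56.1 CPM in Con, 43.1, 42.01 and 42.9 in Exo and 48.4, 39.2 and 46.97 in pLV-Exo-Wnt5a. All 3 Con libraries were above the other 6, an order found in 1 of these 36 genes (2.78%) and in 4.81% of all genes. Cdc25b was lower in both exosome groups (log2FC -0.44, SE 0.091, edgeR Q = 0.265 for Exo versus Con and log2FC -0.37, SE 0.11, edgeR Q = 0.435 for pLV-Exo-Wnt5a versus Con). Kif2c, a kinesin that trims microtubules, and Tacc3, a spindle protein, were lower in Exo than in Con, with a log2FC of -0.48 (SE 0.16) and -0.32 (SE 0.12). Foxm1, the activator of mitosis genes, measured 30.3, 27.9 and 27.03 CPM in Con, 27.1, 19.9 and 20.03 in Exo and 29.5, 24.01 and 35.3 in pLV-Exo-Wnt5a, with log2FC 0.42, SE 0.15, edgeR Q = 0.317 for pLV-Exo-Wnt5a versus Exo. Cyclin F (Ccnf) and separase (Espl1) were higher in the same comparison, by 0.39 (SE 0.15) and 0.33 (SE 0.15).

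Of 19 regulators of the E2F, Rb and DREAM families, none passed Q < 0.05. At an unadjusted p under 0.05, 2 were higher and 1 lower for Exo versus Con, 2 higher and 2 lower for pLV-Exo-Wnt5a versus Exo and 1 higher for pLV-Exo-Wnt5a versus Con, where 14.9%, 12% and 8.35% of all genes passed that limit. Rb1, which restrains the E2F factors, measured 7.70, 10.4 and 11.1 CPM in Con, 19.1, 15.7 and 12.9 in Exo and 13.2, 10.5 and 11.6 in pLV-Exo-Wnt5a. Exo was above Con without overlap (log2FC 0.71, SE 0.19, edgeR Q = 0.265) and pLV-Exo-Wnt5a was lower than Exo (log2FC -0.43, SE 0.15, edgeR Q = 0.287). E2f2, an activating E2F, measured 6.49, 4.96 and 6.33 CPM in Con, 4.75, 3.16 and 3.05 in Exo and 5.55, 4.42 and 5.69 in pLV-Exo-Wnt5a and was lower in Exo than in Con (log2FC -0.70, SE 0.22, edgeR Q = 0.265). Mybl2 (B-Myb) had all 3 pLV-Exo-Wnt5a libraries above the other 6 (log2FC 0.48, SE 0.18, edgeR Q = 0.325 against Exo), an order found in 1 of the 19 genes (5.26%) and in 1.82% of all genes. The DREAM subunits Lin9 and Lin54 gave 0.88 (SE 0.34) for Exo versus Con and -0.55 (SE 0.20) for pLV-Exo-Wnt5a versus Exo, and the repressor E2f7 gave 0.56 (SE 0.25) for pLV-Exo-Wnt5a versus Con.

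Of 15 genes of p53, its targets and other arrest genes, none passed Q < 0.05. At an unadjusted p under 0.05, 1 was higher and 2 lower, 2 were higher and 1 lower, and 0 were higher and 2 lower in the 3 comparisons, where 14.9%, 12% and 8.35% of all genes passed that limit. Cdkn1c (p57), an inhibitor in leaving the cycle, measured 159, 118 and 115 CPM in Con, 94.9, 91.6 and 102 in Exo and 87.8, 105 and 91.6 in pLV-Exo-Wnt5a. All 3 Con libraries were above the other 6 (log2FC -0.44, SE 0.12, edgeR Q = 0.265 for Exo and log2FC -0.47, SE 0.13, edgeR Q = 0.392 for pLV-Exo-Wnt5a, each against Con). That order was found in 1 of the 15 genes (6.67%) and in 4.81% of all genes. Btg2, an antiproliferative gene, was also lower in both exosome groups than in Con, with a log2FC of -0.29 (SE 0.084) and -0.25 (SE 0.10). Ccng1, a p53 target, was higher in Exo than in Con by 0.71 (SE 0.22). Between the exosome groups Phlda3, another p53 target, and Trp53, the gene of p53 itself, were higher in pLV-Exo-Wnt5a by 0.32 (SE 0.094) and 0.17 (SE 0.066), and Trp53inp1 was lower, with a log2FC of -0.63 (SE 0.26).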

How the data were processed

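NSCs in differentiation medium alone, with BMSC exosomes or with exosomes of Wnt5a-overexpressing BMSCs were sequenced, 3 libraries each. The authors deposited 1 table of raw counts per gene for all 9 libraries, 32765138 to 40427647 counts each. The study's methods name HISAT2, while the submitters' processing notes list Bowtie2, RSEM 1.3.1 and DESeq2 1.4.5. Which of them made the counts, and on which genome build, is not given in the sources used here, and the genes carry mouse numbers. Floors of 3 counts cover counting error only.

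Libraries were grouped by their titles. The 3 pairwise comparisons were fitted on 6 libraries each over all genes with edgeR 4.0.16 (R 4.3.3, limma 3.58.1; filterByExpr with a minimum count of 10, TMM, quasi-likelihood test, Benjamini-Hochberg Q). Standard errors were taken as the log2 fold change over the root of the F statistic, 95% intervals from the t distribution of the fit, and log2 CPM used a prior count of 2. Same-numbered libraries of different groups did not deviate together (9 pairs, r from -0.20 to 0.063), so the fits carry no replicate block. Replicates of 1 group differed by more than counting noise. The fits were checked on simulated counts whose changes were larger than those of most cell cycle genes here, so the check does not cover small differences. The 40 genes and all other lists were chosen with earlier results of these data known. The text names all 40, and of the other pathway lists the genes with Q under 0.05 and up to 3 per list and comparison with the smallest unadjusted p under 0.05; Cdt1, Mcm10, Vim, Hes5, Dcx, Map2, Gfap, Mbp, Csf1r, Aif1, Cx3cr1, Pdgfrb and Col3a1 were named after their values were seen. Alternatives were DESeq2 1.42.0, other size factors, no or stricter filters, all 9 libraries in 1 fit, no TMM factors, a replicate block, a limit on fold change and leaving out each library.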

Additional observations from a re-analysis of the deposited data

How the results depend on the processing

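The counts of cell cycle genes past Q < 0.05 were 0 in each comparison. For Exo versus Con, 1 passed without the filter on low counts (Cdkn1b, Q = 0.0362), where 446 of 23057 genes passed. For pLV-Exo-Wnt5a versus Exo, 3 passed in DESeq2, where 411 of 15132 genes did. Without the filter 2 passed in that comparison (Ccnd1 and Mcm5, Q = 0.0141 and 0.0277), where 397 of 23185 genes did. The cause of these differences between settings was not tested. Over 14 settings, the Q of these genes ranged from 0.0362 to 0.606 for Cdkn1b, 0.0141 to 0.478 for Ccnd1, 0.00543 to 0.383 for Mcm5 and 0.0442 to 0.512 for Mcm2.

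The labels do not say whether same-numbered libraries shared more than a number. With a replicate block, 5 genes for Exo versus Con (8 without it), 11 for pLV-Exo-Wnt5a versus Exo (10) and 4 for pLV-Exo-Wnt5a versus Con (3) had an unadjusted p under 0.05. None of the 40 passed Q < 0.05 under the block, where 0, 116 and 38 of all genes did. Under the block 6.45% of all genes were higher and 2.95% lower, 4.67% and 7.73%, and 5.43% and 3.79% at that limit. 

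Leaving out 1 library gave 0 to 0, 0 to 1 and 0 to 0 genes past Q < 0.05, the 1 being Ccnd1 without pLV-Exo-Wnt5a replicate 2, where 75 of 15499 genes passed. Over these fits 0 to 371, 19 to 96 and 1 to 18 of all genes passed Q < 0.05. At the unadjusted limit it gave 3 to 11 genes for Exo versus Con (4 without Con replicate 2, 3 without Exo replicate 2 or without Exo replicate 3), 5 to 16 for pLV-Exo-Wnt5a versus Exo (5 when Exo replicate 3 was left out, 16 when replicate 2 of pLV-Exo-Wnt5a was) and 2 to 6 for pLV-Exo-Wnt5a versus Con (6 without replicate 2 or 3 of pLV-Exo-Wnt5a). Over the same fits, 4.66% to 14.5%, 3.12% to 4.90% and 1.93% to 8.45% of all genes were higher and 2.5% to 8.87%, 4.05% to 8.61% and 2.14% to 5.95% lower. Class medians without 1 library ranged, for Exo versus Con, pLV-Exo-Wnt5a versus Exo and pLV-Exo-Wnt5a versus Con, from -0.27 to -0.17, 0.15 to 0.31 and -0.084 to 0.096 in S phase genes, from -0.36 to -0.029, -0.053 to 0.31 and -0.15 to 0.16 in mitosis genes, from -0.052 to 0.050, -0.050 to 0.062 and -0.14 to 0.030 in G1 genes, and from -0.078 to 0.063, -0.15 to 0.12 and 0.11 to 0.29 in inhibitors. Of 1552 single-gene values under alternatives (those without TMM factors added after the data were seen), 1456 stayed on the same side of the unadjusted limit, 42 passed only under the alternative and 54 lost it. The sign of 104 differed from that with all libraries and settings as reported, 0 of them past the limit in either fit, and 26 of 156 class medians changed sign, among them the mitosis median for pLV-Exo-Wnt5a versus Exo, 0.14, which was -0.053 without pLV-Exo-Wnt5a replicate 3. Ccne2, Bub1, Mki67 and Kif11 rest on few counts, 0 in the lowest library for Ccne2.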
